A study of Mus musculus with 60 samples.

Results

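Islets in which MYC had been switched on were compared at 16 and at 8 hours (h) after activation, on 10 of the 60 Affymetrix mouse arrays of the series: 4 arrays at 16 h and 6 at 8 h. The members were defined by the sample labels and the study's design text. They are the arrays of mice given the activating drug (MycON), at those hours, without the arrays that the design text sets aside. The choice was made with earlier results of these data known. At 16 h the MycON arrays were 2 with exenatide (replicates 1 and 3) and 2 with water (replicates 1 and 2). At 8 h they were 3 with exenatide and 3 with water, and 2 further arrays at 16 h had been set aside. The same step of time in mice without active MYC (MycOFF) has 5 arrays at 16 h (3 exenatide, 2 water) and 5 at 8 h (3 exenatide, 2 water), after 1 array was set aside at each time.

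All groups used here, MycON and MycOFF, were adult male transgenic mice, pIns-MYCERTAM, on a CBA-C57BL/6 background, given as 8 to 12 weeks old in one label and as 3 months old in another. The transgene puts a fusion of MYC to a tamoxifen-responsive oestrogen receptor under the insulin promoter, so that it is made in beta cells, the insulin-secreting cells of the islet. MycON mice received 1 mg 4-hydroxytamoxifen daily by intraperitoneal injection, which releases the fusion protein to act, and MycOFF mice received the peanut oil vehicle. Within each state, mice also had exenatide (exendin-4, an agonist of the glucagon-like peptide 1 receptor) at 50 µg per kg under the skin 2 times a day, starting 2 days before, or water. Islets were cut by laser from frozen sections of 15 µm, and RNA from the captured tissue was labelled for the arrays. No animals without the fusion protein were given the drug, so that effects of the drug and of MYC cannot be told apart between MycON and MycOFF. The labels call the replicates biological but tie none to a named animal, so p-values measure the spread between these samples.

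MYC is a transcription factor that promotes growth and entry into the cell cycle. It raises genes for ribosome production, nucleotide synthesis and DNA replication, and a cell that enters the cycle makes cyclins and replication proteins before DNA synthesis and the mitotic machinery after it. CDK inhibitors, proteins that hold the cyclin-dependent kinases in check, act against this advance. In beta cells, which divide rarely in adults, sustained MYC is known for causing both proliferation and cell death. Step below means the log2 value at 16 h minus that at 8 h, averaged with equal weight over exenatide and water. The deposited values are deviations of each probe set from its own median over the 60 arrays, so a value of 0 is that median and levels of different genes cannot be compared.

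The arrays gave the following general picture. The DNA replication genes, used to check the labels, had array means of 0.21 to 2.96 in MycON islets at 16 h and 0.77 to 2.16 in MycON islets at 8 h, all above the -0.78 to -0.55 and -1.09 to -0.46 of MycOFF islets at 16 and 8 h. Because every probe set is centred, the values cannot show whether beta cell genes were high in these islets in absolute terms. In such bulk samples fewer cells of a type and less RNA per cell cannot be told apart. The MycOFF exenatide array 3 at 16 h stood apart, with a spread over genes (SD) of 0.949 against 0.321 to 0.607 on the other arrays at these hours. On that array the acinar markers averaged 2.90 and the skin and muscle markers 2.73.

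Between 8 and 16 h, MycON islets gained messages for mitosis and for 2 inhibitors of CDK4 and CDK6. They lost messages that had been raised at 8 h, among them Dctd and Mtap of nucleotide metabolism, Ung of uracil repair and 2 ribosome biogenesis genes. Of 12544 genes tested, 38 rose (0.303%) and 38 fell (0.303%), 76 in all (0.606%), at an adjusted p under 0.05. The test was limma's moderated test over the 52 arrays the study kept, with Benjamini-Hochberg adjustment over all genes tested. The 38 risers had a median step of 1.62 (0.66 to 3.18), and 32 of them changed at least 2-fold. The 38 fallers had a median step of -1.32, and 34 of them changed at least 2-fold. When only the 10 arrays of the step entered the fit, 1 gene passed in place of 76 (Cdkn2d, which rose), with 1450 genes at an unadjusted p under 0.05. Without MycON water 16 h replicate 1 there were 24, and without MycON exenatide 16 h replicate 3 there were 183.

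The share of rises depended on the arrays and on the scaling. With all 60 arrays there were 22 rises and 58 falls, and after quantile normalization 32 and 49. Of the 31 named genes called, 16 passed with all 60 arrays, among them the risers Mt2, Cd36 and Cdkn2c. The 15 that did not were the falls Ak4, Hlf and Dhcr7 and all other named risers, Cdkn2d and the 4 called mitosis genes included. The 2 MycON arrays at 16 h that this adds had mean skin and muscle marker values of 8.70 and 9.13, against -0.22 to 2.73 on the kept MycOFF arrays at 16 and 8 h.

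MycOFF islets over the same hours had no gene past the threshold (0%; 766 genes, or 6.11%, had an unadjusted p under 0.05 in limma, against 1372 or 10.9% in MycON islets). In MycOFF islets the 38 risers of the MycON step had a median step of -0.04 (-0.73 to 1.11) and the 38 fallers a median step of 0.11 (-0.19 to 1.15). The median step of all genes tested was 0.02 in MycON islets and -0.02 in MycOFF islets, with a median SE of 0.35. In MycON islets the 4 arrays at 16 h lay wholly above the 6 at 8 h for 226 genes (1.8%) and wholly below for 159 (1.27%). Among the called genes, 21 of the 38 risers and 27 of the 38 fallers separated the groups in this way. In MycOFF islets the 5 arrays at 16 h lay wholly above the 5 at 8 h for 72 genes (0.574%) and wholly below for 24 (0.191%).

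**Figure D1:**
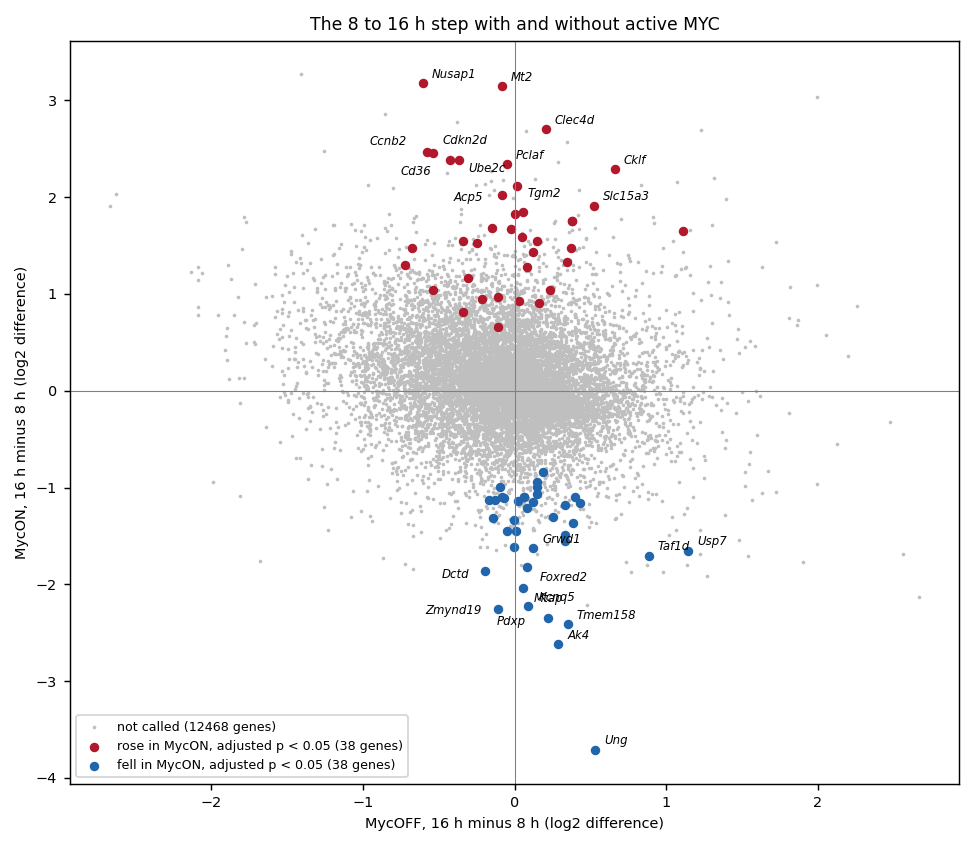
Step of each gene (16 h minus 8 h, log2) in MycON islets (vertical axis) against MycOFF islets (horizontal axis) for the 12544 genes tested. Called genes are in colour. The 38 risers lie at 0.66 to 3.18 and the fallers below 0 on the vertical axis. Both groups spread around 0 on the horizontal axis.

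The mitosis genes were the group with most risers. Of 59 members, 58 were on the array and 50 passed the filter on variation, and 49 of these 50 had a positive step in MycON islets. Ube2c, Nusap1, Ccnb2 and Kif22 passed the test, all as rises, where 0.303% of all genes did. The median step of the 50 was 1.20 in MycON islets, beside 0.02 over all genes tested, and -0.23 in MycOFF islets, where 15 of the 50 were positive and none passed. After quantile normalization 1 member passed in place of 4 and the median was 0.80, over 52 members tested, and with all 60 arrays 1 passed and the median was 0.70. With all probe sets kept, 58 members were tested, 56 had a positive step and 5 passed.

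Nusap1, which binds and bundles spindle microtubules, had the largest rise among the called genes. At 16 h it had 0.35 and 4.48 with exenatide and 6.08 and 3.71 with water, and at 8 h it ran from -0.31 to 2.02 (median -0.05) in MycON islets. Its step was 3.18 ± 0.59 (SE; adjusted p = 0.00449), a 9.05-fold rise, and the low array at 16 h lay within the range of 8 h. In MycOFF islets it ran -0.46 to 0.01 at 16 h and -0.45 to 1.31 at 8 h. Without MycON water 16 h replicate 1 its step was 2.59 (adjusted p = 0.0808), and another probe set of the gene had a step of 0.28.

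Ube2c, the enzyme that starts ubiquitin chains for the anaphase-promoting complex, had 2.50 and 2.12 with exenatide and 3.69 and 3.54 with water at 16 h in MycON islets. At 8 h it ran from -0.53 to 2.47 (median 0.08), so that 1 array at 8 h lay above the lowest array of 16 h. Its step of 2.39 ± 0.41 (adjusted p = 0.0019) was a 5.23-fold rise, and it passed with any 1 of the 20 arrays at 8 and 16 h left out, but not after quantile normalization (adjusted p = 0.0558). Ccnb2, a mitotic cyclin that partners CDK1, had 1.33 and 3.25 with exenatide and 4.40 and 2.80 with water at 16 h, and at 8 h ran from -0.60 to 2.00 (median 0.31). Its step of 2.47 ± 0.51 (adjusted p = 0.0145) was a 5.52-fold rise, with 3 of the 4 arrays at 16 h above every array at 8 h. Ube2c and Ccnb2 had MycOFF steps of -0.36 and -0.57. Ccnb2 no longer passed without MycON exenatide 16 h replicate 3, MycON water 16 h replicate 1 or MycON exenatide 8 h replicate 1 (largest adjusted p 0.129), nor after quantile normalization (adjusted p = 0.057).

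Kif22, a kinesin that acts on chromosome arms, had a smaller step of 1.55 ± 0.36 (adjusted p = 0.0298), and lost its call in 5 of the 20 fits that left out 1 array and after quantile normalization (adjusted p = 0.0589). Cenpf, a kinetochore protein, had 4 arrays at 16 h wholly above those at 8 h and a step of 2.78 ± 0.70, but missed the threshold (adjusted p = 0.0562). Prc1, which organises the spindle midzone, had a step of 2.13 (adjusted p = 0.0644). Outside the list, Kifc1, a minus-end-directed mitotic kinesin, rose by 1.28 (adjusted p = 0.000299), and Sass6, a centriole assembly protein, rose by 1.54. Both were named after their values were seen. Kifc1 ran from 0.33 to 2.60 at 16 h in MycON islets, and from -0.09 to 0.15 on the MycON 8 h and MycOFF arrays. The test pools the spread over all 52 kept arrays, such flat ones included. Sass6 ran from 0.24 to 3.26 at 16 h and reached 0.82 at 8 h in MycON islets, so the groups overlapped. Its other probe set had a step of -0.29. Ccnb1, the other main mitotic cyclin, has probe sets assigned to several symbols and was not tested.

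**Figure D2:**
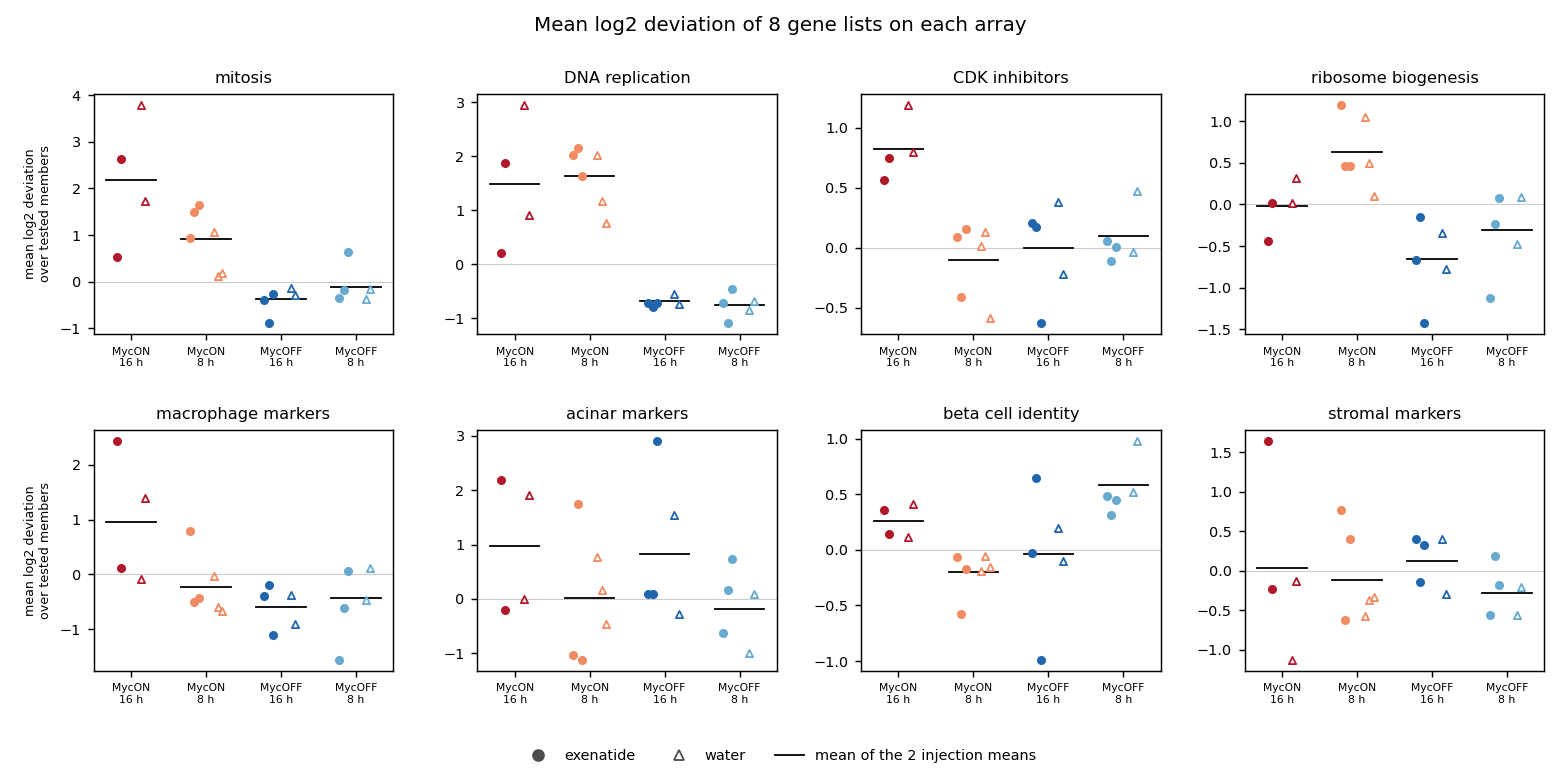
Mean log2 deviation of 8 gene lists on every array used here, one point per array (filled for exenatide, open for water), for MycON islets at 16 and 8 h and then MycOFF islets at 16 and 8 h, with a line at the mean of the injection means. The mitosis means at 16 h in MycON islets run from 0.54 to 3.80, and those at 8 h from 0.11 to 1.64.

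The rise was uneven over the arrays. The mean of the 50 mitosis genes at 16 h was 0.54 and 2.63 with exenatide and 3.80 and 1.73 with water in MycON islets, and at 8 h it ran 0.11 to 1.64 (median 1.01). The lowest array at 16 h, exenatide replicate 1, thus lay within the range of 8 h. The median step of the list was 0.14 within exenatide and 2.39 within water, and the difference between the injections passed for none of its members (0.0159% of all genes passed as lower with exenatide). Leaving out 1 array at a time moved the median between 0.68 (without MycON exenatide 16 h replicate 3, 2 called) and 1.83 (without MycON water 16 h replicate 2, 11 called), and without MycON water 16 h replicate 1 it was 0.72, with 1 called.

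Genes of mitosis commonly carry a CHR element, a short promoter motif read late in the cell cycle, together with CCAAT boxes. The promoters of the 5 mitosis genes with the smallest p among the rises are shown for that reason, from RefSeq on build GRCm38.p6, each as the 250 bases before the annotated start, 5′ to 3′. Capitals mark CHR letters (TTTGAA or TTCGAA) and CCAAT letters on either strand, and a run CCAATTGG in Ube2c holds 2 overlapping CCAAT matches. Ube2c lies at chr2:164769679-164769928, plus strand; Nusap1 at chr2:119618048-119618297, plus strand; Ccnb2 at chr9:70421555-70421804, minus strand; Kif22 at chr7:127042421-127042670, minus strand; and Cenpf at chr1:189688087-189688336, minus strand.
Ube2c: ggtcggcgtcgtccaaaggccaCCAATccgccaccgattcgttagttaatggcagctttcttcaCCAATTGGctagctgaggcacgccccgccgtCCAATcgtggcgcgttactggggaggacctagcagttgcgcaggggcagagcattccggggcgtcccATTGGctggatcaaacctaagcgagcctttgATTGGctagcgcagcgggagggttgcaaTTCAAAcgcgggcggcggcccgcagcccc
Nusap1: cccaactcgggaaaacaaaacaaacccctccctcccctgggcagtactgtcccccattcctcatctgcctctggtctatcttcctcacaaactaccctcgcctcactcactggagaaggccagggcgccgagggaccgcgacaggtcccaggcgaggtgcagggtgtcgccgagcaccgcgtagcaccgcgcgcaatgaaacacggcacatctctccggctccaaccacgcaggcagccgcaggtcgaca
Ccnb2: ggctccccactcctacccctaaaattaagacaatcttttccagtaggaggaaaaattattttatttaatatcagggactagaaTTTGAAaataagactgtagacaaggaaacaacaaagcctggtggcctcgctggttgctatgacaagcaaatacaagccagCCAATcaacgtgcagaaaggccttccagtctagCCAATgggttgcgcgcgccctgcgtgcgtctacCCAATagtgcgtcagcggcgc
Kif22: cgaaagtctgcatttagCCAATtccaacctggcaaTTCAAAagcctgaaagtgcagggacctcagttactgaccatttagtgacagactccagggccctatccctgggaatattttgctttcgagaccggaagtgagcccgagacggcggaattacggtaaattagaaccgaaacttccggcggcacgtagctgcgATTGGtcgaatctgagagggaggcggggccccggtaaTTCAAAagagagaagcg
Cenpf: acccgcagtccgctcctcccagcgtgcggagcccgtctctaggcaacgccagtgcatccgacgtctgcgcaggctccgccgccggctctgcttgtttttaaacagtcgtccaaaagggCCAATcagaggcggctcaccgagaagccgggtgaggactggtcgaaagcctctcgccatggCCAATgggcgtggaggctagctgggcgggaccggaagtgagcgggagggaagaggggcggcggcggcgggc

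Ube2c held CHR letters starting 29 bases before the start and Kif22 held them 17 and 215 bases before it. Ccnb2 held them 167 bases before the start and again 5 bases after it, and Cenpf 3 bases after it, beyond the stretch shown. CCAAT letters were found at 6 places in Ube2c, 3 in Ccnb2 and 2 each in Kif22 and Cenpf, and neither motif in this window of Nusap1. Over the full 300-base entries, which add 50 bases after the start, CHR letters were in 29 of the 41 mitosis genes with an entry (70.7%), against 16.7% of the 10134 tested genes with one and 21.7% of all 27025 genes in the table. CCAAT letters were in 29 of the 41 (70.7%), against 42.7% of tested genes and 41.1% of all, and both motifs in 26 (63.4%), against 6.61% and 8.61%. Among the called genes with an entry, CHR letters were in 36.7% of 30 risers and 18.8% of 32 fallers. A match is only a match of letters.

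The CDK inhibitor Cdkn2d had the smallest adjusted p among the risers. It encodes p19 INK4d, which binds CDK4 and CDK6. At 16 h it had 1.77 and 2.23 with exenatide and 3.13 and 2.25 with water in MycON islets, and at 8 h it ran from -0.56 to 0.08 (median -0.01). All 4 arrays at 16 h lay more than 1 log2 unit above all 6 at 8 h. The step of 2.46 ± 0.34 (adjusted p = 0.00011) was a 5.5-fold rise, 2.09 within exenatide and 2.83 within water. In MycOFF islets it ran -1.05 to 0.12 at 16 h and -0.04 to 0.07 at 8 h, a step of -0.54. It also passed in the fit to the 10 arrays alone and with any 1 array left out, but not with all 60 arrays, where the step was 1.70 (adjusted p = 0.141).

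Cdkn2c, which encodes p18 INK4c with the same targets, also rose. It had 1.50 and 2.22 with exenatide and 2.57 and 1.45 with water at 16 h and ran from -0.49 to 0.88 (median -0.04) at 8 h in MycON islets, so that the groups did not overlap. Its step was 1.84 ± 0.44 (adjusted p = 0.0392), and it lost its call in 7 of the 20 fits without 1 array. Of 8 CDK inhibitor genes, 7 passed the filter and 5 had a positive step. The 2 called were rises, where 0.303% of all genes passed as higher. The median step was 1.05 in MycON islets and -0.09 in MycOFF islets. Cdkn2b (p15 INK4b) had a step of 1.05 (adjusted p = 0.0616), and Cdkn2a, which gives p16 INK4a and p19 ARF, -0.71 (adjusted p = 0.345). Cdkn1a, the p21 gene induced by p53, had a step of 1.42 ± 0.79 (adjusted p = 0.542), and Cdkn1b (p27) one of 0.46. The mean of the 7 tested genes on each array at 16 h was 0.57 and 0.75 with exenatide and 1.20 and 0.80 with water, and at 8 h it ran -0.58 to 0.16 (median 0.05).

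**Figure D3:**
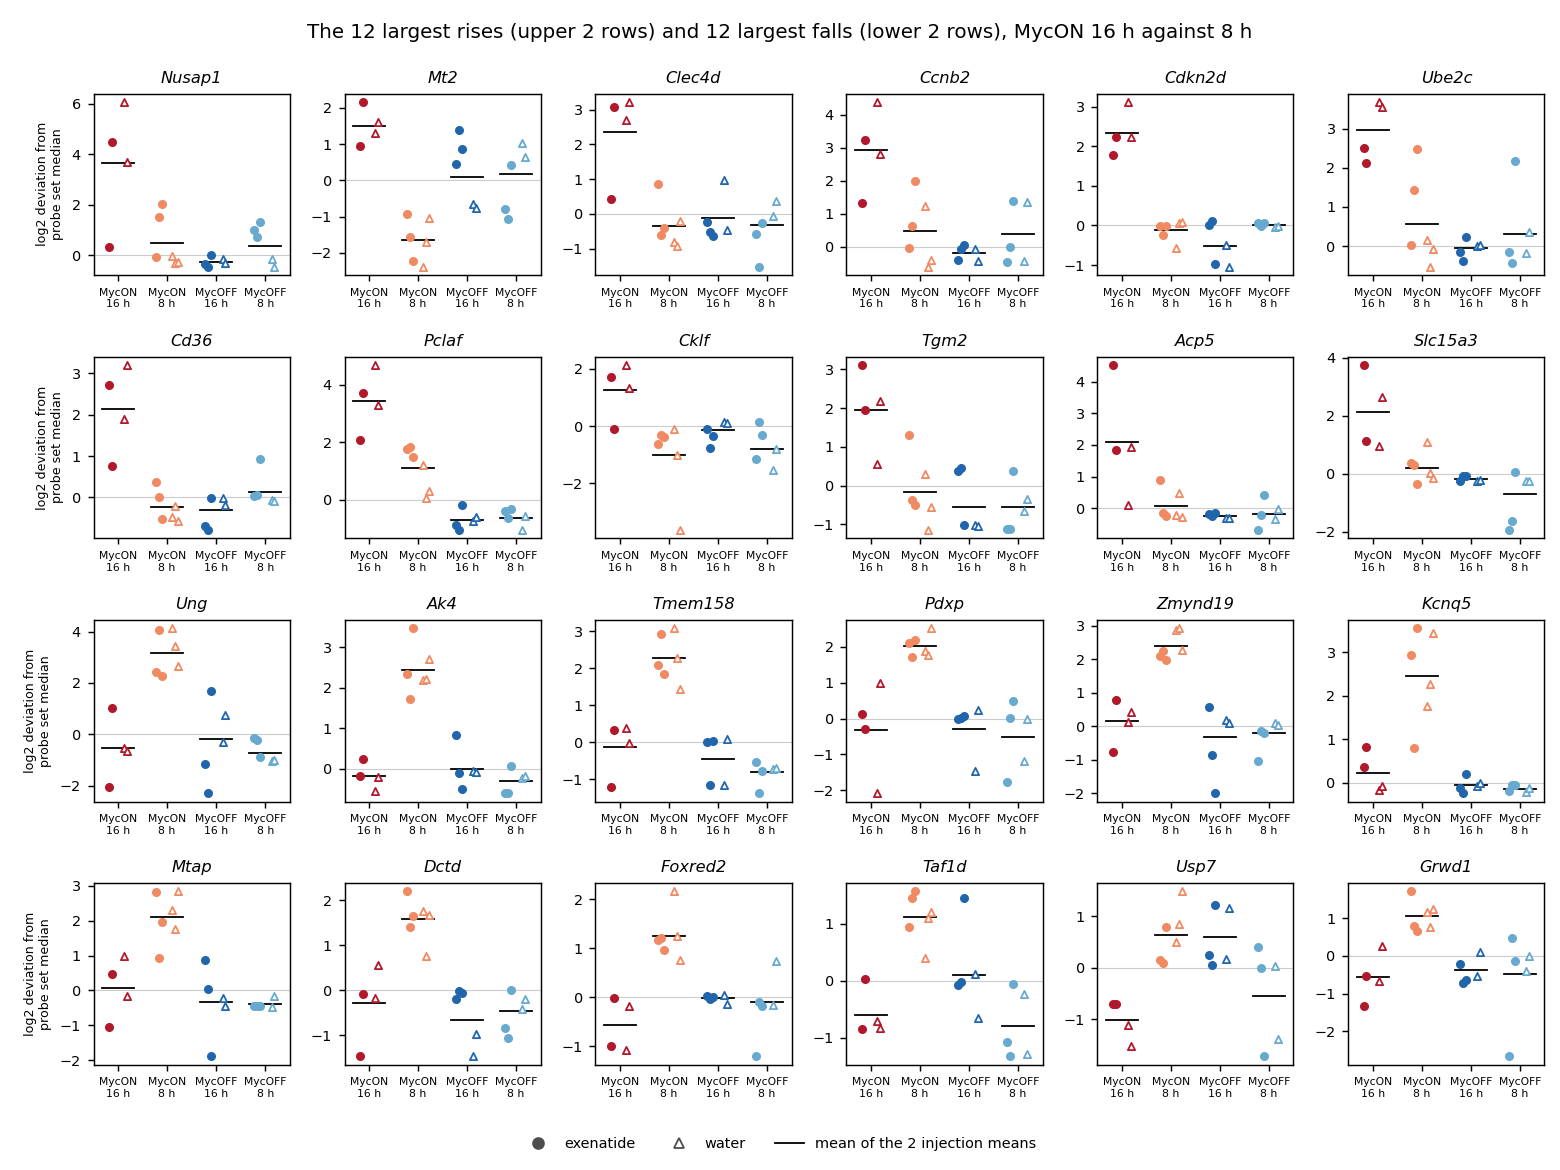
Log2 deviation of the 12 largest rises and 12 largest falls on every array at 16 and 8 h, in MycON islets and to their right MycOFF islets, one point per array (filled for exenatide, open for water) with a line at the mean of the injection means. Cdkn2d at 16 h in MycON islets lies at 1.77 to 3.13 and at 8 h at -0.56 to 0.08, while Ung lies at -2.04 to 1.01 at 16 h and 2.27 to 4.13 at 8 h.

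Mt2, a metallothionein that binds zinc and copper, rose almost as much as Nusap1. At 16 h it had 0.96 and 2.17 with exenatide and 1.30 and 1.60 with water in MycON islets, and at 8 h it ran from -2.39 to -0.94 (median -1.63). Every array at 8 h was below its median over the series and every array at 16 h above it. The step was 3.15 ± 0.58 (adjusted p = 0.00404), an 8.87-fold rise, with 3.14 within exenatide and 3.16 within water. In MycOFF islets it was -0.08, the average of opposite steps of 1.38 within exenatide and -1.55 within water. Pclaf, a PCNA-binding protein of replicating cells, had 2.07 and 3.73 with exenatide and 4.69 and 3.29 with water at 16 h and ran from 0.04 to 1.83 (median 1.34) at 8 h. Its step of 2.34 ± 0.58 (adjusted p = 0.0485) lost its call in 17 of the 20 fits without 1 array, and its other probe sets had steps of 0.49 and -0.06.

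Several of the larger rises were of genes known from macrophages. Of 18 macrophage markers, 16 passed the filter, all 16 had a positive step and 2 passed the test as rises (0.303% of all genes did). Their median step was 1.14 in MycON islets, against -0.02 in MycOFF islets, where 7 of the 16 were positive. Cd36, a scavenger receptor for fatty acids and oxidised lipoproteins, had 2.72 and 0.77 with exenatide and 1.90 and 3.20 with water at 16 h and ran from -0.58 to 0.37 (median -0.34) at 8 h, with no overlap. Its step was 2.38 ± 0.47 (adjusted p = 0.00747), and its other probe sets had steps of 1.91 and 1.35. Cd14, the co-receptor for bacterial lipopolysaccharide, had 0.22 and 2.45 with exenatide and 2.54 and 1.89 with water at 16 h in MycON islets. At 8 h it ran from -0.08 to -0.01 (median -0.05), a step of 1.82 ± 0.39 (adjusted p = 0.0199). In MycOFF islets Cd14 ran from -0.09 to 0.16. The centred values cannot show whether such flat values are the lowest the array can measure.

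Outside the marker list, Clec4d, a C-type lectin of myeloid cells, had 0.43 and 3.07 with exenatide and 2.71 and 3.23 with water at 16 h and ran from -0.92 to 0.85 (median -0.50) at 8 h in MycON islets. The 3 high arrays exceeded every array at 8 h, and the step was 2.71 ± 0.63 (adjusted p = 0.0364). Acp5, the tartrate-resistant acid phosphatase, had 4.53 and 1.85 with exenatide and 0.10 and 1.93 with water at 16 h, with a step of 2.02 ± 0.45 (adjusted p = 0.0239). Slc15a3, a lysosomal transporter of peptides and histidine, had 3.74 and 1.14 with exenatide and 0.97 and 2.65 with water (step 1.91 ± 0.42, adjusted p = 0.0199). The chemokine-like factor Cklf rose by 2.29 ± 0.51 (adjusted p = 0.0239), and the transglutaminase Tgm2, an enzyme that crosslinks proteins, rose by 2.12 ± 0.53 (adjusted p = 0.0492). Other probe sets had smaller steps, of -0.08 to 1.61 for Cklf and 0.02 to 1.46 for Tgm2. Without MycON water 8 h replicate 3, where Cklf was -3.63, Cklf was not called. Of the 20 fits without 1 array, Tgm2 lost its call in 15, Clec4d in 7, Acp5 and Slc15a3 in 5 each, Cklf in 4 and Cd36 and Cd14 in 2 each. Tgm2 also failed with no filter and when a gene's probe sets were averaged, and Clec4d after quantile normalization and with no filter. The lysosomal marker Cd68 had a step of 1.80 and did not pass (adjusted p = 0.207).

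The arrays that carried these rises differed between genes. The mean of the 16 macrophage markers at 16 h was 2.43 and 0.11 with exenatide and -0.09 and 1.39 with water in MycON islets, and it ran -0.67 to 0.80 (median -0.47) at 8 h. Exenatide replicate 1 and water replicate 2 held the high marker means, with Acp5, Cd68 and Slc15a3 highest on the same arrays, while Cd14 and Clec4d were lowest on exenatide replicate 1. Without exenatide replicate 1 the median step of the macrophage markers was 0.31 with 13 of 16 positive and 1 called, and without water replicate 2 it was 0.63 with 15 positive. On these arrays the acinar markers, from the enzyme-secreting tissue around the islets, averaged 2.18 and -0.21 with exenatide and 0.00 and 1.91 with water at 16 h and ran -1.12 to 1.74 (median -0.14) at 8 h, and the stromal markers averaged 1.64 and -0.22 with exenatide and -1.12 and -0.13 with water at 16 h. The part of other cells in the macrophage rises was not tested.

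The remaining risers were of mixed function. They included Mmp12, the macrophage metalloelastase (1.58), Defb1, a beta-defensin (1.65), Nudt1, which clears oxidised nucleotides (1.52), Casp8, the initiator caspase of death receptors (1.04), Hdac1, a histone deacetylase (0.90), and Actg1, a cytoplasmic actin (0.94). These 6 were picked after their values were seen.

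The genes that fell stood above MycOFF islets at 8 h. MycON minus MycOFF had a median of -0.06 at 16 h and 1.41 at 8 h over the 38 fallers, and of 1.33 at 16 h and -0.11 at 8 h over the 38 risers, both groups having been chosen on these MycON arrays. Ung, the glycosylase that removes uracil from DNA, fell the most. It had -2.04 and 1.01 with exenatide and -0.52 and -0.65 with water at 16 h and ran from 2.27 to 4.13 (median 3.05) at 8 h in MycON islets. The highest array at 16 h lay below the lowest at 8 h, and the step was -3.71 ± 0.55 (adjusted p = 0.000299), a 13.1-fold fall. In MycOFF islets Ung ran -2.29 to 1.67 at 16 h and -1.04 to -0.13 at 8 h.

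Dctd, which deaminates dCMP on the route to thymidine nucleotides, had -1.46 and -0.08 with exenatide and -0.18 and 0.56 with water at 16 h and ran from 0.75 to 2.19 (median 1.65) at 8 h. The groups did not overlap, and the step was -1.86 ± 0.25 (adjusted p = 0.00011), against -0.19 in MycOFF islets. It was the 1 member of 18 tested in the nucleotide supply list to pass, where 0.303% of all genes passed as lower. That list had a median step of -0.09 in MycON islets, with 6 of 18 positive, and of -0.23 in MycOFF islets, also with 6 positive. In MycON islets 4 members lay wholly below at 16 h, as 1.27% of all genes did. Mtap, which returns methylthioadenosine to adenine and methionine, fell by 2.04 (adjusted p = 0.0288). Tigar, a phosphatase that diverts sugar into the pentose phosphate route, fell by 1.18; it was named after its values were seen.

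Ak4, a mitochondrial adenylate kinase, had -0.18 and 0.25 with exenatide and -0.55 and -0.20 with water at 16 h and ran from 1.74 to 3.48 (median 2.29) at 8 h in MycON islets (step -2.62 ± 0.43, adjusted p = 0.00106). The transmembrane protein gene Tmem158 had -1.22 and 0.33 with exenatide and 0.38 and -0.03 with water at 16 h and ran from 1.43 to 3.09 (median 2.19) at 8 h (step -2.41 ± 0.37, adjusted p = 0.000373). In both genes every array at 16 h was below every array at 8 h. The other probe sets did not show these falls: 4 of Ak4 had steps of -0.20 to 0.00 and 2 of Tmem158 had steps of -0.10 and -0.02. Zmynd19, a zinc finger protein, fell by 2.25 ± 0.39 (adjusted p = 0.00197) and Kcnq5, a voltage-gated potassium channel, by 2.23 ± 0.40 (adjusted p = 0.00359). The other probe sets of Zmynd19 had steps of -0.80 and -1.31, and those of Kcnq5 of -0.16 and -0.03. Pdxp, the pyridoxal phosphatase, fell by 2.35 (adjusted p = 0.0451), and Foxred2, an oxidoreductase of the endoplasmic reticulum, by 1.82 (adjusted p = 0.00314).

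Ung, Ak4, Tmem158, Zmynd19, Kcnq5 and Dctd passed with any 1 of the 20 arrays left out, as did Mt2, Cdkn2d and Ube2c among the risers. Among the other falls, Foxred2 lost its call without MycON water 16 h replicate 1 (adjusted p = 0.0537), Mtap in 6 of the 20 such fits and Pdxp in 11.

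**Figure D4:**
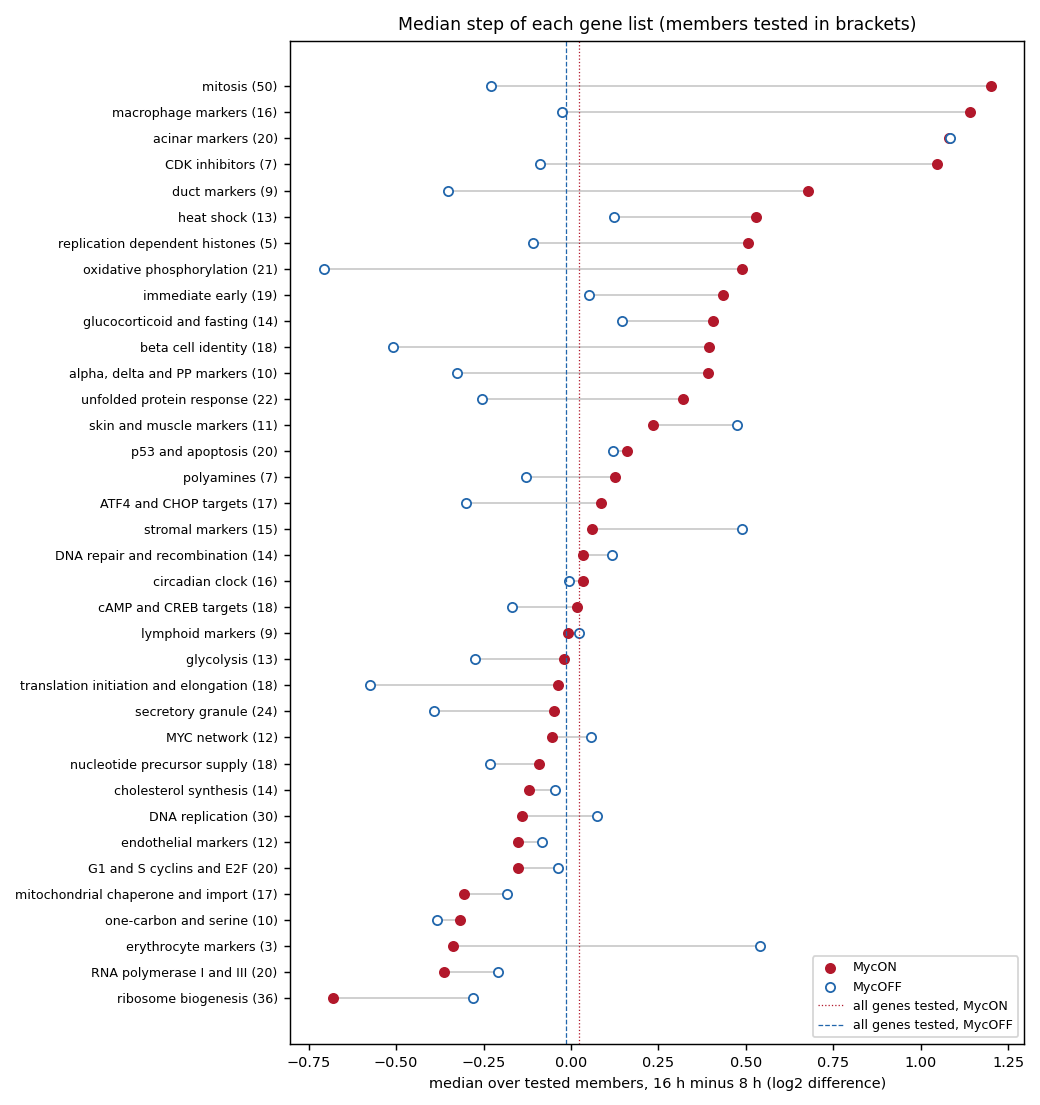
Median step (16 h minus 8 h, log2) over the tested members of each gene list, in MycON islets and in MycOFF islets. In MycON islets the mitosis list is highest at 1.20 and the ribosome biogenesis list lowest at -0.68, while the acinar markers stand at 1.08 in both states.

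Of 39 ribosome biogenesis genes, 36 were tested, and 2 of these passed as lower and 0 as higher. In MycON islets 32 of the 36 had a negative step and 6 lay wholly below at 16 h, as 1.27% of all genes did, and the median step was -0.68. In MycOFF islets 9 of the 36 were positive and the median was -0.28. Grwd1, a WD-repeat protein of ribosome assembly, and Wdr75, a part of the complex that processes the small-subunit RNA, passed the test as falls, where 0.303% of all genes did. Grwd1 had -1.33 and -0.54 with exenatide and -0.67 and 0.26 with water at 16 h and ran from 0.67 to 1.71 (median 0.98) at 8 h, a step of -1.63 ± 0.40 (adjusted p = 0.0471). Wdr75 fell by 0.84 ± 0.19 (adjusted p = 0.0239). Other probe sets had smaller falls, with steps of -0.72 and -0.39 for Grwd1 and -0.22 for Wdr75. Grwd1 also failed with no filter, when its probe sets were averaged and with replicate number as a block. Wdr75 failed with the filter at the 60th percentile.

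The next members missed the threshold: the processing factor Rrp12 had a step of -1.44 (adjusted p = 0.0555), Nolc1, a nucleolar phosphoprotein, -1.73 (adjusted p = 0.0773) and Dkc1, the pseudouridine synthase of small nucleolar particles, -1.80 (adjusted p = 0.0773). The nucleolar protein gene Ncl had a step of 0.78 and did not pass, and its other 4 probe sets had negative steps of -1.16 to -0.52. The list mean at 16 h was -0.43 and 0.02 with exenatide and 0.02 and 0.32 with water, and at 8 h it ran 0.10 to 1.20 (median 0.48). The call of Grwd1 was lost in 12 and that of Wdr75 in 5 of the 20 fits without 1 array, and neither passed without MycON exenatide 16 h replicate 1, MycON water 16 h replicate 1, MycON exenatide 8 h replicate 3, MycON water 8 h replicate 1 or MycON water 8 h replicate 2.

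Of 20 tested genes for RNA polymerases I and III and their factors, 16 had a negative step, with a median of -0.36 in MycON islets and -0.21 in MycOFF islets. Taf1d is a subunit of the factor that brings RNA polymerase I to the ribosomal RNA genes. It was the 1 member called, where 0.303% of all genes passed as lower. It had -0.85 and 0.03 with exenatide and -0.71 and -0.83 with water at 16 h and ran from 0.40 to 1.57 (median 1.15) at 8 h, a step of -1.70 ± 0.35 (adjusted p = 0.0128) with no overlap. The other probe sets of Taf1d had steps of -0.21 to 0.12. Taf1c, another subunit of the same factor, fell by 1.09, and Tcof1, the nucleolar protein treacle, by 1.56 (adjusted p = 0.00522); both were named after their values were seen. Polr3g, a subunit of RNA polymerase III, had a step of -1.31 and missed the threshold (adjusted p = 0.0566).

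The genes of the entry into S phase shared no direction in this step. Of 30 tested DNA replication genes 13 had a positive step and none passed, with a median of -0.14 in MycON islets and 0.07 in MycOFF islets. The MycON median was -1.05 within exenatide and 0.52 within water. The licensing factor Cdt1 had a step of -1.29 ± 0.70 (adjusted p = 0.529) and the helicase subunit Mcm5 -1.09 (adjusted p = 0.688). Among 20 genes for G1 and S cyclins and E2F factors the median was -0.15. Cdc25a, the phosphatase that activates CDK2, was the 1 member called, where 0.303% of all genes passed as lower. It fell by 1.14 ± 0.25 (adjusted p = 0.023) and lost its call in 6 of the 20 fits without 1 array. Its other probe sets had steps of -0.88 and -0.17. Ccne1, the cyclin E1 gene, had a step of -0.33, and Odc1, which makes the polyamine putrescine and is a known target of MYC, -0.49. Neither passed. Other probe sets had steps of -1.37 for Ccne1 and of -1.25 and -0.555 for Odc1.

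Few other lists held a called member. Hlf, a clock-controlled transcription factor, had 0.00 and -0.04 with exenatide and -0.08 and -0.01 with water at 16 h. At 8 h it ran from 0.68 to 2.14 (median 1.62), a step of -1.62 ± 0.36 (adjusted p = 0.0239). The call was lost in 5 of the 20 fits without 1 array and after quantile normalization, and its other probe set had a step of -0.37. Hlf was the 1 circadian gene of 16 tested to pass, where 0.303% of all genes passed as lower. The clock output gene Dbp had a step of -0.53. Dhcr7, the last enzyme of cholesterol synthesis, fell by 1.37 ± 0.34 (adjusted p = 0.0492) and lost its call in 17 of the 20 fits without 1 array. It was the 1 of 14 tested cholesterol genes to pass, where 0.303% of all genes passed as lower.

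Several lists without a called gene had medians of opposite sign in the 2 states. The 18 tested beta cell identity genes had a median of 0.39 in MycON islets (16 positive) and -0.51 in MycOFF islets (3 positive). Ins2, an insulin gene, had a step of 2.04 ± 1.55 (adjusted p = 0.716), Pdx1, a beta cell transcription factor, 0.85 (adjusted p = 0.242) and Ucn3, a urocortin of mature beta cells, 0.28. The 21 oxidative phosphorylation genes had a median of 0.49 in MycON islets (18 positive) and -0.71 in MycOFF islets (1 positive), and the 10 alpha, delta and PP cell markers 0.39 (10 positive) and -0.33 (3 positive). Among stress genes, the 22 of the unfolded protein response had 0.32 in MycON and -0.26 in MycOFF islets, and Ddit3, which encodes CHOP, had a step of 1.07 with no overlap between 16 and 8 h (adjusted p = 0.146). The 13 heat shock genes had 0.53 and 0.12. The MycOFF array that stood apart, exenatide 16 h replicate 3, was the lowest at 16 h for oxidative phosphorylation (-2.30) and for beta cell identity (-0.99). Without it the MycOFF medians were -0.31 for oxidative phosphorylation (2 positive), -0.28 for beta cell identity (4 positive), -0.13 for the alpha, delta and PP markers and 0.00 for the unfolded protein response. With all 60 arrays the MycON median of the beta cell identity genes was -1.71, with 0 of 18 positive, and that of the alpha, delta and PP markers -0.94, both opposite in sign to those of the kept arrays. The acinar markers had 1.08 in both states, with none called, but 0.61 in MycOFF islets without that array and -0.06 in MycON islets with all 60, and Prss2, a trypsinogen, had 1.13 in MycON islets.

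Whether the step itself differed between MycON and MycOFF islets was tested for each gene in the same limma model. Of 12544 genes, 6 passed (0.0478%): Cdkn2d and Cebpzos with the larger step in MycON islets (0.0159%), and Ung, Tmem158, Taf1d and Usp7 with the smaller (0.0319%). At an unadjusted p under 0.05 there were 1417 (11.3%). The MycON step minus the MycOFF step was 3.00 ± 0.48 for Cdkn2d (adjusted p = 0.00451) and -4.24 ± 0.78 for Ung (adjusted p = 0.0223). For Tmem158 it was -2.76 ± 0.52 and for Taf1d -2.59 ± 0.49 (adjusted p = 0.0223 for each).

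In Taf1d both states contributed, with -1.70 in MycON islets and 0.89 ± 0.35 in MycOFF islets (unadjusted p = 0.0154). The same holds for Usp7, a deubiquitinase that acts on the p53 regulator MDM2. Its steps were -1.65 in MycON islets (adjusted p = 0.048) and 1.15 in MycOFF islets (difference -2.80 ± 0.58, adjusted p = 0.0498). The MycON call of Usp7 was lost in 12 of the 20 fits without 1 array, with no filter and when its probe sets were averaged. Its other probe sets had MycON steps of -0.80 to -0.09. Cebpzos, a gene neighbouring Cebpz, had 1.05 and -0.86, a difference of 1.91 ± 0.38 (adjusted p = 0.0403), without passing in MycON islets alone (adjusted p = 0.0611). The difference for Nusap1 (adjusted p = 0.0588) and Ube2c (adjusted p = 0.0501) did not pass, so that for no mitosis gene was the step shown to differ from that of MycOFF islets. With all 60 arrays no difference passed in limma, and without single arrays the count ran from 2 to 45 (45 without MycON exenatide 16 h replicate 3).

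The MycOFF step had no called gene to name. The 5 genes with the smallest p in MycOFF islets were Golga7b (-1.14), Dcaf12 (1.11), Cep85 (2.20), Fabp3 (-1.28) and Ldb2 (1.09), none past the threshold. Without MycOFF water 16 h replicate 3, 13 genes passed.

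All 38 risers had a positive step and all 38 fallers a negative one within both exenatide and water, a count that calling genes on the average of the 2 favours. Taken alone, the MycON step had 12 called genes with exenatide (0.0957%; 5 higher, 0.0399%, and 7 lower, 0.0558%) and 56 with water (0.446%; 44 higher, 0.351%, and 12 lower, 0.0957%). The difference between the injections passed for 2 genes (0.0159%), both with the smaller step under exenatide, and 719 (5.73%) had an unadjusted p under 0.05. Lrr1, a substrate receptor of an E3 ubiquitin ligase, had -0.02 and 0.36 with exenatide and 5.48 and 3.55 with water at 16 h, against 3.58, 3.11 and 2.01 with exenatide and 3.00, -0.14 and 0.03 with water at 8 h. Its step was -2.73 within exenatide and 3.55 within water (difference -6.28, adjusted p = 0.0073).

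Hs6st2, which adds sulphate to heparan chains, had -0.16 and -0.18 with exenatide and 2.12 and 0.29 with water at 16 h, against 2.96, 1.83 and 2.33 with exenatide and 0.34, 0.27 and 0.25 with water at 8 h (steps -2.54 and 0.92, difference -3.46, adjusted p = 0.0073). For Hs6st2 the water arrays at 16 h were unlike each other. Next in order and not past the threshold were Cks1b, a CDK-binding protein (-3.61), Tpm4, a tropomyosin (-2.71), and Shroom3, an actin regulator (-1.71). Each injection has 2 arrays at 16 h, which limits the precision, and without MycON exenatide 16 h replicate 3 the count was 62 while without MycON water 16 h replicate 1 it was 0.

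**Figure D5:**
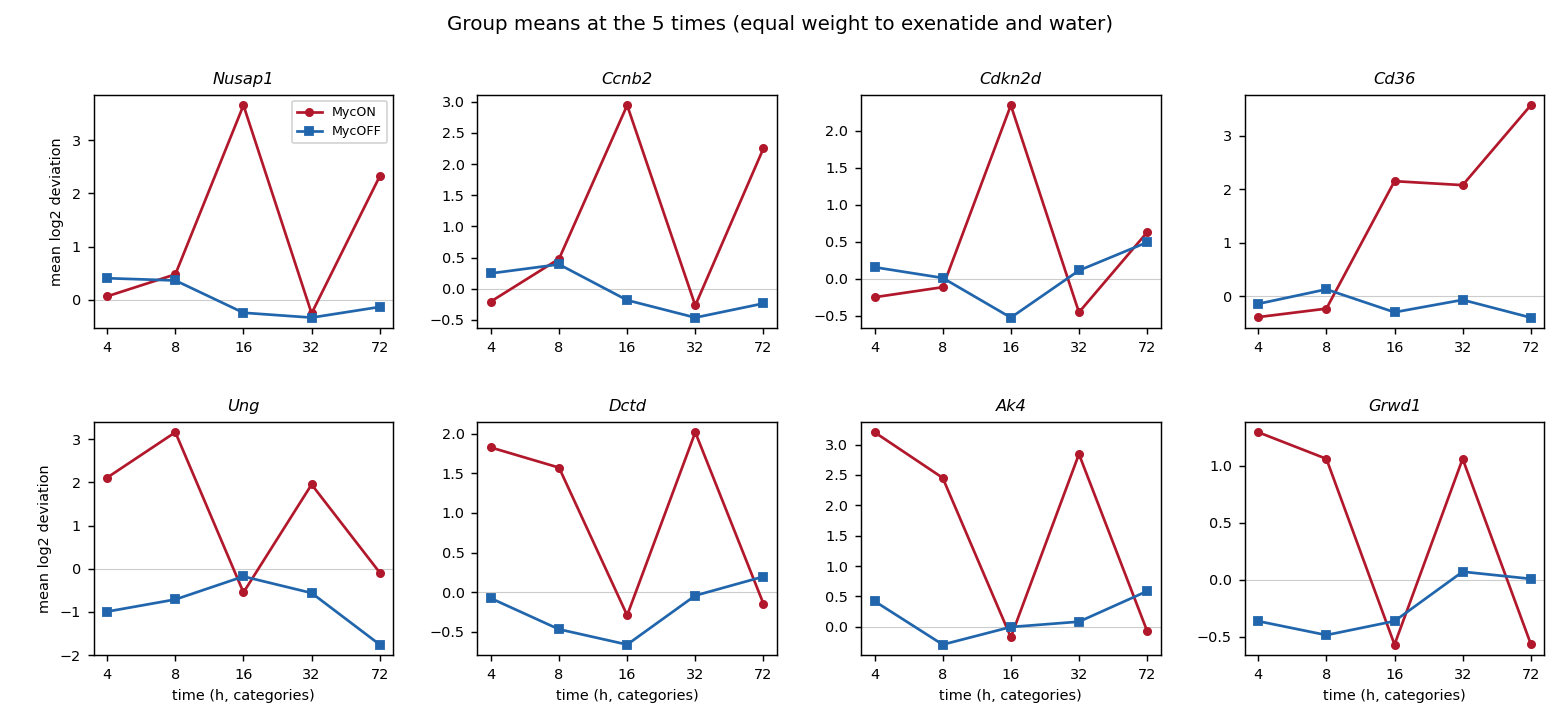
Mean log2 deviation of 8 named genes at 4, 8, 16, 32 and 72 h in MycON and MycOFF islets, each the mean of the exenatide and water group means. In MycON islets Cdkn2d is highest at 16 h (2.34), while Ung, Ak4 and Dctd are high at 4, 8 and 32 h and near 0 or below at 16 and 72 h.

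The other time points place the 16 h values in sequence; they include the arrays of the step and are given without a test. In MycON islets the mitosis mean was -0.24, 0.91, 2.17, -0.05 and 1.36 at 4, 8, 16, 32 and 72 h, so that it was highest at 16 h, low at 32 h and high again at 72 h. In MycOFF islets it was 0.15, -0.11, -0.36, -0.52 and -0.19 at those times. Nusap1 followed the same order in MycON islets, with 0.06, 0.48, 3.66, -0.26 and 2.32, and Ccnb2 had -0.20, 0.48, 2.94, -0.27 and 2.25. Cdkn2d had -0.25, -0.12, 2.34, -0.46 and 0.63, with its high value at 16 h alone. The smaller value at 72 h was close to the 0.49 of MycOFF islets at that time.

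Cd36 stayed high after 16 h, with -0.39, -0.23, 2.15, 2.07 and 3.57, and the macrophage marker mean had -0.46, -0.24, 0.96, 1.09 and 2.19. Mt2 alternated, with 0.44, -1.64, 1.51, -0.98 and 0.13. The named falling genes below were high at 4, 8 and 32 h and low at 16 and 72 h. Ung had 2.11, 3.16, -0.55, 1.95 and -0.09, Ak4 3.20, 2.45, -0.17, 2.84 and -0.07 and Dctd 1.82, 1.57, -0.29, 2.02 and -0.14. Tmem158 had 2.61, 2.28, -0.13, 2.19 and -0.38 and Grwd1 1.29, 1.06, -0.57, 1.06 and -0.56. The ribosome biogenesis mean had 0.69, 0.63, -0.02, 0.96 and -0.43 in that order of times. Ung, Ak4, Dctd, Tmem158 and Grwd1 all stood higher at 32 h than at 16 h. Choosing these genes as low on the 16 h arrays favours such a return. DNA replication genes stayed above 0 at each time from 4 h, with 0.10, 1.63, 1.49, 0.89 and 0.69.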

How the data were processed

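Gene expression was measured on 60 Affymetrix arrays of laser-captured mouse islets. The authors deposited 1 table of values with 45101 probe sets. MAS5 and GCRMA are listed, without role or version, per the submitters' processing notes. The deposited values were taken as log2 from their range (-12.3 to 12.8), and every probe set has a median of 0 over the 60 arrays (tolerance 1e-04), so fold changes rest on log base 2 and absolute levels and the authors' steps before deposit are unknown. Precision is limited by the number of arrays; there is no read depth.

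Probe sets with 1 gene symbol in the platform annotation (34945; 932 had several, 9160 none) were kept when their interquartile range over the 52 arrays kept by the study reached its 40th percentile (0.118), and the widest-ranging probe set stood for each gene, leaving 12544 of 18193 genes. A mean was fitted for each of the 20 groups of MYC state, injection and time with limma 3.58.1 in R 4.3.3 (32 residual degrees of freedom), and steps were averaged equally over injections. Named genes were the 12 largest rises and 12 largest falls of the MycON step with 1 sign in both injections, the smallest p in the difference tests and in the MycOFF step, up to 4 called members of each list, and a fixed set; genes outside it are marked. The members, the 36 lists (598 of 720 members tested) and the tests were chosen with earlier results of these data known. The fit was tested on simulated data. Alternatives were all 60 arrays, the arrays of 1 step alone, quantile normalization, array weights, the mean of a gene's probe sets, other filters, a replicate block and leaving out each array. Promoters are RefSeq entries of GRCm38.p6. The largest correlation between 2 arrays was 0.965 over all probe sets, so no array was counted as a copy of another.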

Additional observations from a re-analysis of the deposited data

Results flagged for a closer look

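In 3 of the 48 gene and group sets tested 1 array lay far from the rest, where chance alone gives about 1 in 20. Cklf was -3.63 on MycON water 8 h replicate 3, against -1.0 to -0.12 on the other arrays of MycON islets at 8 h. Foxred2 was 2.16 on MycON water 8 h replicate 1, against 0.75 to 1.26 on the others. Taf1d was 0.032 on MycON exenatide 16 h replicate 3, against -0.85 to -0.71 on the other 3.

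The test of the difference between the MycON and the MycOFF step singled out Cdkn2d (3.00), Cebpzos (1.91), Taf1d (-2.59), Tmem158 (-2.76), Ung (-4.24) and Usp7 (-2.80). Leaving out 1 of the 20 arrays at a time cost Cdkn2d this call in 0 fits, Ung in 3, Tmem158 in 5, Taf1d in 6, Usp7 in 10 and Cebpzos in 11. The test of the difference between exenatide and water in MycON islets singled out Hs6st2 (-3.46, lost in 1 such fit) and Lrr1 (-6.28, lost in 3).

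The 2 MycON arrays at 16 h that the study set aside had some list means above those of the MycOFF arrays at 16 and 8 h. The mitosis mean was 1.39 on exenatide replicate 2 and 0.013 on water replicate 3 (MycOFF -0.89 to 0.64), so that the second lay within the MycOFF range. The CDK inhibitor mean was 1.01 on exenatide replicate 2 and 0.67 on water replicate 3 (MycOFF -0.63 to 0.47). The same arrays had skin and muscle marker means of 8.70 and 9.13 (MycOFF -0.22 to 2.73), stromal marker means of 5.47 and 5.20 (MycOFF -0.56 to 0.40) and acinar marker means of -2.58 and -2.50.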

How the results depend on the processing

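With 4 arrays against 6, calls near the threshold rest on single arrays. The 76 calls of the MycON step became 1 in the fit to the arrays of the step alone, 293 with array weights and 133 with the mean over a gene's probe sets. With all 60 arrays there were 80 (22 higher, 58 lower; 34 shared with the 76), with quantile normalization 81 (32 higher, 49 lower), with no filter 59 and with the filter at the 60th percentile 52. Leaving out 1 array gave 24 to 183, and the count moved by over 1.5 times without MycON exenatide 16 h replicate 3 (183), MycON exenatide 16 h replicate 1 (39), MycON water 16 h replicate 1 (24), MycON exenatide 8 h replicate 1 (39), MycON exenatide 8 h replicate 3 (48) or MycON water 8 h replicate 2 (47). The 0 calls of the MycOFF step became 1 with its own arrays alone and 0 to 13 without 1 array (13 without MycOFF water 16 h replicate 3, 1 without MycOFF exenatide 8 h replicate 1). The 6 differences between the steps became 0 with all 60 arrays, 24 with the mean over probe sets, 14 after quantile normalization, 3 with the 60th percentile and 2 to 45 without 1 array (2 without MycON exenatide 16 h replicate 1, MycOFF exenatide 16 h replicate 3 or MycOFF water 8 h replicate 3; 45 without MycON exenatide 16 h replicate 3; 16 without MycOFF exenatide 16 h replicate 2 or MycOFF exenatide 8 h replicate 3; 13 without MycON water 8 h replicate 1). The 2 differences between the injections became 0 with all 60 arrays, 0 with the arrays of the step alone, 19 with array weights, 1 with the mean over probe sets and 0 to 62 without 1 array (at 16 h in MycON islets, 7 and 62 without exenatide replicates 1 and 3 and 0 and 21 without water replicates 1 and 2; at 8 h, 4, 1 and 1 without water replicates 1, 2 and 3).

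Of the 31 named genes called in the MycON step, 16 kept the call with all 60 arrays, 1 in the fit to the 10 arrays, 31 with array weights, 27 with the mean over probe sets, 24 after quantile normalization, 23 with no filter and 27 of 29 at the 60th percentile. No called value changed sign. Of the named genes not called, Ins2 (-1.89), Pdx1 (-1.29), Prss2 (-1.47), Ucn3 (-0.67), Dbp (0.59) and Ncl (-0.54) changed sign with all 60 arrays, Ncl also after quantile normalization (-1.19) and with the mean over probe sets (-0.50), and Ucn3 without MycON water 16 h replicate 2 (-0.08). Over 8 pairs of same-numbered arrays at 16 and 8 h, the deviations from the group means correlated at -0.137 to 0.0708. In groups of 2 arrays the 2 deviations mirror each other, so this check cannot decide whether the replicate numbers pair the samples. With the replicate block there were 71 calls in the MycON step (36 higher, 35 lower), 0 in the MycOFF step, 13 in the difference of steps and 2 between injections, and 28 of the 31 named genes kept their call.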

Other observations

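Gene groups not described above had no called member in the step of MycON islets. The immediate early genes, such as those induced by growth signals, had a median step of 0.44 in MycON islets (14 of 19 positive) and 0.05 in MycOFF islets (12 positive). Genes induced by glucocorticoid and fasting had 0.41 in MycON islets (13 of 14 positive) and 0.15 in MycOFF islets (8 positive), and genes of p53 and apoptosis 0.16 in MycON islets (11 of 20 positive) and 0.12 in MycOFF islets (15 positive). Genes of translation initiation and elongation had -0.04 in MycON islets (9 of 18 positive) and -0.58 in MycOFF islets (1 positive), and those of the secretory granule -0.05 in MycON islets (12 of 24 positive) and -0.39 in MycOFF islets (5 positive). Mitochondrial chaperone and import genes had -0.31 in MycON islets (4 of 17 positive) and -0.18 in MycOFF islets (2 positive), and glycolysis genes -0.02 in MycON islets (6 of 13 positive) and -0.28 in MycOFF islets (4 positive). Among markers of other cells, duct markers had 0.68 in MycON islets (8 of 9 positive) and -0.35 in MycOFF islets (3 positive), endothelial markers -0.15 in MycON islets (4 of 12 positive) and -0.08 in MycOFF islets (5 positive) and stromal markers 0.06 in MycON islets (8 of 15 positive) and 0.49 in MycOFF islets (12 positive). With all 60 arrays the MycON medians were -1.67 for the secretory granule, 2.29 for stromal markers, 0.63 for glycolysis and 0.10 for translation. Glycolysis also turned positive after quantile normalization (0.03), and without MycOFF exenatide 16 h replicate 3 the MycOFF median of the immediate early genes was -0.01. The MycON and MycOFF steps were not compared by a test over these groups.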
